A study of Schizosaccharomyces pombe with 4 samples.

Results

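The 8 protein-coding genes described here are rhp16, rhp7, SPCC330.03c, mug135, ura4, pmp20, SPCC330.07c and alg11, which lie next to each other over 24.6 kb of the left arm of chromosome III of fission yeast (Schizosaccharomyces pombe), with ura4 near the middle. They were taken by array position, each gene with its own run of tiles, from the stretch around ura4 that earlier results of these same arrays had shown to carry trimethylated lysine 9 of histone H3 (H3K9me3) on both ON arrays. The genes were thus chosen by their enrichment in ON cells, that choice favours a lower value in OFF cells, and every level and difference is given as a description with no test. They are 8 of the 4934 genes measured with at least 2 tiles and hold 51 of the 41551 genomic tiles. The genes rhp16 and rhp7 overlap at 1 end and share 4 tiles.

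H3K9me3 was measured by chromatin immunoprecipitation (ChIP) on a 2-colour tiling array of 60-base probes placed every 300 bp, in log-phase cells of 4 groups with 1 array each, so every comparison lacks a replicate check. All 4 groups were labelled for tetR-clr4 and shared 20 generations at 32 °C in minimal medium free of thiamine, then 5 generations in 850 µg/ml 5-fluoroorotic acid (5-FOA), before a portion was taken as ON cells and fixed (3% paraformaldehyde). The remaining cells grew on in thiamine (5 µg/ml) plus tetracycline (2.5 µg/ml) for 14 generations and were fixed as OFF cells, which gives clr3-CDx2 OFF, clr3-CDx2 ON, wt OFF and wt ON. Chromatin was sheared to fragments of about 1000 bp and precipitated with 2 µg of antibody, and the precipitated DNA (Cy5) was hybridised against whole-cell extract DNA of the same culture (Cy3, the input). The labels name the genotype as clr3-CDx2 or wild type (wt) and say no more of the allele, and neither the number of clones behind each culture nor the promoter and binding sites of tetR-clr4 are given in the sources used here. OFF cells were harvested after ON cells and after growth in 5-FOA had ended, so harvest time, the end of 5-FOA and the switch cannot be told apart.

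H3K9me3 marks heterochromatin, the compact and silenced state of chromatin, and in fission yeast it is laid down by the methyltransferase Clr4, which also binds the mark that it makes. tetR is the bacterial Tet repressor, a protein that holds on to its operator DNA until tetracycline releases it, and clr3 encodes a histone deacetylase that acts in heterochromatin. The ura4 gene encodes orotidine 5'-phosphate decarboxylase, the last enzyme of uracil synthesis, whose activity makes 5-FOA toxic, so that cells in which ura4 is silent survive on it.

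Promoter sequences are shown for ura4, the gene whose enzyme makes 5-FOA toxic, and for pmp20, the gene with the lowest level of the 8 in wt OFF. Each is the 200 bases before the annotated gene start in the RefSeq reference genome (ASM294v3), read 5′ to 3′ on the minus strand that carries the gene, at III:116626-116825 for ura4 and III:119000-119199 for pmp20. They are reference sequences, since the arrays do not read the sequence of the strains used. Capitals mark matches to TATAAA, known as the TATA box, or to TGACGT, the core of a site for factors of the ATF/CREB kind, both searched on both strands, and a match in these letters is no evidence of a bound factor.
ura4: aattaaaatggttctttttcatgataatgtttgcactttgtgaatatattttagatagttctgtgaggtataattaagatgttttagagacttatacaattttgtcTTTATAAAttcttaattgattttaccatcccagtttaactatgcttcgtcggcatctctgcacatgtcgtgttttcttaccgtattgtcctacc
pmp20: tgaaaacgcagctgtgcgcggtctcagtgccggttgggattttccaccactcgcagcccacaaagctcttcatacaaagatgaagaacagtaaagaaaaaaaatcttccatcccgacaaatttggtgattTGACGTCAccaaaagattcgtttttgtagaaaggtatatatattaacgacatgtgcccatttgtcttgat
In ura4 the capitals hold TATAAA on both strands, overlapping, and in pmp20 they hold TGACGT on both strands, overlapping. TATAAA was found before 3 of the 8 genes (ura4, SPCC330.07c and alg11) and in 37.0% of 5111 promoters of the same length, and TGACGT before 1 of the 8 and in 4.81%. Once the array is moved by the 200 bp that best aligned it with the reference on this arm, the ura4 promoter falls between the tiles at array positions 116400 and 116700, and the pmp20 promoter between those at 118800 and 119100.

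Levels are log2 ratios of ChIP over input signal less the median genomic tile of the same array, so 0 is the typical tile and 1 is 2-fold above it. The value of a gene is the median of its tiles, and a range given beside it runs from the lowest to the highest tile. Neighbouring tiles read overlapping fragments, so such a range describes 1 array and is no replicate error.

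On each ON array, and in clr3-CDx2 OFF, all 8 genes were above 1, and in wt OFF only mug135 was, at 1.04. That value rests on a tile that was left out on the other arrays. The median of the 8 genes was 4.26 in clr3-CDx2 OFF, 3.11 in clr3-CDx2 ON, 0.19 in wt OFF and 3.53 in wt ON. Among the 4934 genes their ranks from the top ran from 5 to 110 in clr3-CDx2 OFF, 2 to 191 in clr3-CDx2 ON, 427 to 4836 in wt OFF and 2 to 56 in wt ON. A level of at least 1 was common on each array, reached by 12.8% of genes in clr3-CDx2 OFF, 11.3% in clr3-CDx2 ON, 9.28% in wt OFF and 9.06% in wt ON. The 5 genes of the middle, from SPCC330.03c to SPCC330.07c, stood above rhp16 and rhp7 on each array but wt OFF, and alg11 had the lowest level of the 8 on the same 3 arrays.

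**Figure D1:**
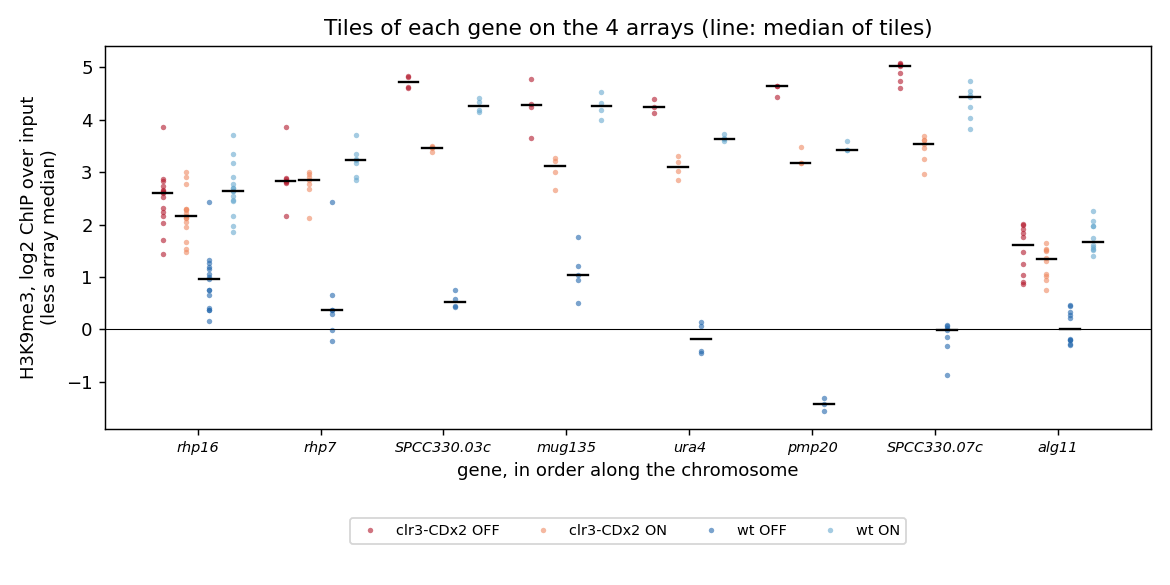
Level of H3K9me3 (vertical axis, log2 ChIP over input less the array median) at each tile of the 8 genes (points) and the median of the tiles (black line), in the order of the genes along the chromosome, for clr3-CDx2 OFF, clr3-CDx2 ON, wt OFF and wt ON. The median of pmp20 is 4.64 in clr3-CDx2 OFF and -1.43 in wt OFF, and the tiles of rhp16 overlap on all 4 arrays.

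The ura4 gene (III:115589-116625, minus strand, 1 coding exon) read 4.24 in clr3-CDx2 OFF over 3 tiles, 3.11 in clr3-CDx2 ON, -0.17 in wt OFF and 3.64 in wt ON over 4 tiles each. Its tiles ran from 4.13 to 4.39 in clr3-CDx2 OFF, 2.86 to 3.30 in clr3-CDx2 ON, -0.45 to 0.13 in wt OFF and 3.59 to 3.73 in wt ON. No 2 of these ranges overlap: wt OFF lay at the array's typical tile, and clr3-CDx2 OFF was the highest of the 4. The 4th tile of ura4, at 116100, was marked as non-uniform in clr3-CDx2 OFF and left out there. On the 2 sides of its promoter the tiles at 116400 and 116700 read 4.24 and 4.43 in clr3-CDx2 OFF, 3.02 and 3.19 in clr3-CDx2 ON, -0.45 and -0.65 in wt OFF, and 3.59 and 3.79 in wt ON. The tile at 116700 lay just above the range of the gene in clr3-CDx2 OFF and wt ON, inside it in clr3-CDx2 ON and just below it in wt OFF.

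pmp20 (III:118222-118999, minus strand, 1 coding exon), a chaperone related to thioredoxin, has 3 tiles. It read 4.64 in clr3-CDx2 OFF, 3.18 in clr3-CDx2 ON, -1.43 in wt OFF and 3.42 in wt ON. In wt OFF it ranked 4836 of 4934 genes, below the typical tile, with tiles from -1.56 to -1.31. The tiles ran from 4.43 to 4.65 in clr3-CDx2 OFF, 3.17 to 3.47 in clr3-CDx2 ON and 3.42 to 3.59 in wt ON, so that the 2 ON arrays overlap and the other ranges do not. Beside its promoter the tiles at 118800 and 119100 read 4.64 and 4.67 in clr3-CDx2 OFF, 3.17 and 3.42 in clr3-CDx2 ON, -1.31 and -1.48 in wt OFF, and 3.59 and 3.58 in wt ON.

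SPCC330.03c (III:109597-110568, minus strand, 3 coding exons) encodes a cytochrome b5 reductase, an enzyme that passes electrons to cytochrome b5. It read 4.72 in clr3-CDx2 OFF, 3.46 in clr3-CDx2 ON, 0.52 in wt OFF and 4.27 in wt ON over 4 tiles. Its tiles differed little within an array, from 4.61 to 4.84 in clr3-CDx2 OFF, 3.38 to 3.50 in clr3-CDx2 ON, 0.43 to 0.76 in wt OFF and 4.15 to 4.41 in wt ON, and no 2 of these ranges overlap. SPCC330.07c (III:120540-122630, minus strand, 1 coding exon), annotated as a transporter, held the highest level of the 8 on each array but wt OFF. It read 5.03 in clr3-CDx2 OFF, 3.53 in clr3-CDx2 ON, -0.01 in wt OFF and 4.44 in wt ON over 7 tiles. Its ranges were 4.62 to 5.08 in clr3-CDx2 OFF, 2.96 to 3.68 in clr3-CDx2 ON, -0.88 to 0.09 in wt OFF and 3.83 to 4.74 in wt ON, where clr3-CDx2 OFF and wt ON overlap and the other pairs do not.

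mug135 (III:112050-113431, minus strand, 1 coding exon), named for higher expression in meiosis, read 4.27 in clr3-CDx2 OFF, 3.11 in clr3-CDx2 ON, 1.04 in wt OFF and 4.26 in wt ON. It kept the highest level of the 8 genes in wt OFF, where 3 of its 5 tiles were at 1 or more and the tile at 112800 read 1.77. That tile was marked as non-uniform on the other 3 arrays, and 54.1% of the 31-base words of the reference around it occur more than once in the genome, so part of that sequence is not unique. With 4 tiles on those arrays, mug135 ran from 3.65 to 4.79 in clr3-CDx2 OFF, 2.66 to 3.27 in clr3-CDx2 ON and 3.99 to 4.53 in wt ON, against 0.50 to 1.77 in wt OFF. clr3-CDx2 OFF and wt ON overlap, and the other ranges do not. Without the tile at 112800, the tiles of mug135 in wt OFF read 0.50, 0.94, 1.04 and 1.21, with a median below 1. The level above 1 in wt OFF thus rests on that tile.

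The DNA repair genes stood on the left. rhp16 (III:102424-106710, minus strand, 1 coding exon), an ATP-dependent helicase, and rhp7 (III:105680-107848, plus strand, 2 coding exons) are the fission yeast counterparts of the budding yeast partners that recognise damage in nucleotide excision repair. rhp16 read 2.59 in clr3-CDx2 OFF, 2.16 in clr3-CDx2 ON, 0.97 in wt OFF and 2.65 in wt ON over 15 tiles, and rhp7 read 2.83 in clr3-CDx2 OFF, 2.86 in clr3-CDx2 ON, 0.37 in wt OFF and 3.24 in wt ON over 7. The ranges of rhp16 were 1.44 to 3.86 in clr3-CDx2 OFF, 1.48 to 3.00 in clr3-CDx2 ON, 0.16 to 2.43 in wt OFF and 1.85 to 3.71 in wt ON, and overlap on all 4 arrays. In wt OFF 6 of its 15 tiles were at 1 or more, and a shared tile at 105600, where the 2 genes meet, read 3.86 in clr3-CDx2 OFF, 3.00 in clr3-CDx2 ON, 2.43 in wt OFF and 3.71 in wt ON. It was the highest tile of the whole stretch in wt OFF and the highest of both genes on each array. Without that tile the next highest of rhp7 in wt OFF was 0.66, at 105900.

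alg11 (III:124266-127134, plus strand, 1 coding exon), a mannosyltransferase that adds mannose to the lipid-linked sugar chain used for protein glycosylation, stood on the right. It read 1.62 in clr3-CDx2 OFF, 1.33 in clr3-CDx2 ON, 0.02 in wt OFF and 1.67 in wt ON over 10 tiles. The 5 tiles at its start had a median of 1.91 in clr3-CDx2 OFF, 1.52 in clr3-CDx2 ON, 0.34 in wt OFF and 1.98 in wt ON. The 5 tiles at its end, farther from ura4, read 1.04 in clr3-CDx2 OFF, 1.02 in clr3-CDx2 ON, -0.20 in wt OFF and 1.57 in wt ON, lower on each array. Its tiles ran from 0.87 to 2.00 in clr3-CDx2 OFF, 0.76 to 1.64 in clr3-CDx2 ON, -0.29 to 0.46 in wt OFF and 1.41 to 2.25 in wt ON, so that wt OFF alone does not overlap the others.

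Ordered by level, most genes overlapped the next in their tiles. The breaks were between ura4 and rhp7 in clr3-CDx2 OFF, between ura4 and pmp20 in wt OFF, and between mug135 and ura4 in wt ON. In clr3-CDx2 ON no neighbours in the order were separated.

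In wt cells each of the 8 genes had less H3K9me3 in OFF than in ON. A gene was counted as lower or higher when its level differed by at least 1 (2-fold) and the higher of the 2 levels was at least 1. All 8 were counted as lower, and over all measured genes 27 of 4934 were (0.547%), a share that the choice of the 8 genes on ON arrays does not allow to be read against them. The median difference of the 8 was -3.48 (11.2-fold lower), beside 0.00 over all genes. The differences were -4.85 at pmp20, -4.44 at SPCC330.07c, -3.81 at ura4, -3.75 at SPCC330.03c, -3.22 at mug135, -2.87 at rhp7, -1.68 at rhp16 and -1.66 at alg11. pmp20 and SPCC330.07c held the 2 most negative differences of all measured genes, and all 50 tiles of the 8 genes used on both arrays were lower in wt OFF. On the ChIP channel alone the median difference was -1.91, and 7 of 8 genes were counted.

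In clr3-CDx2 cells none of the 8 genes was counted as lower after the switch (0.203% of all genes were), and 5 were counted as higher, a direction that turns with scaling to equal pericentromeric signal, SPCC330.07c by 1.498, pmp20 by 1.46, SPCC330.03c by 1.26, mug135 by 1.16 and ura4 by 1.14. Over all measured genes 42 of 4934 were counted as higher (0.851%) and the median difference was 0.01, against a median of 1.15 for the 8. rhp16 differed by 0.43, alg11 by 0.28 and rhp7 by -0.02, with overlapping tiles. At the 5 genes counted, the tiles of clr3-CDx2 OFF and clr3-CDx2 ON did not overlap. Pericentromeric tiles had a median of 4.40 in clr3-CDx2 OFF, 2.79 in clr3-CDx2 ON, 4.53 in wt OFF and 3.63 in wt ON. Once arrays were scaled to equal signal there, the median difference of the 8 genes was -0.56. None was then counted as higher, and rhp7 was counted as lower, at -1.46. On the ChIP channel alone, and with normexp background correction, 0 of 8 were counted, with median differences of 0.62 and 0.72.

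**Figure D2:**
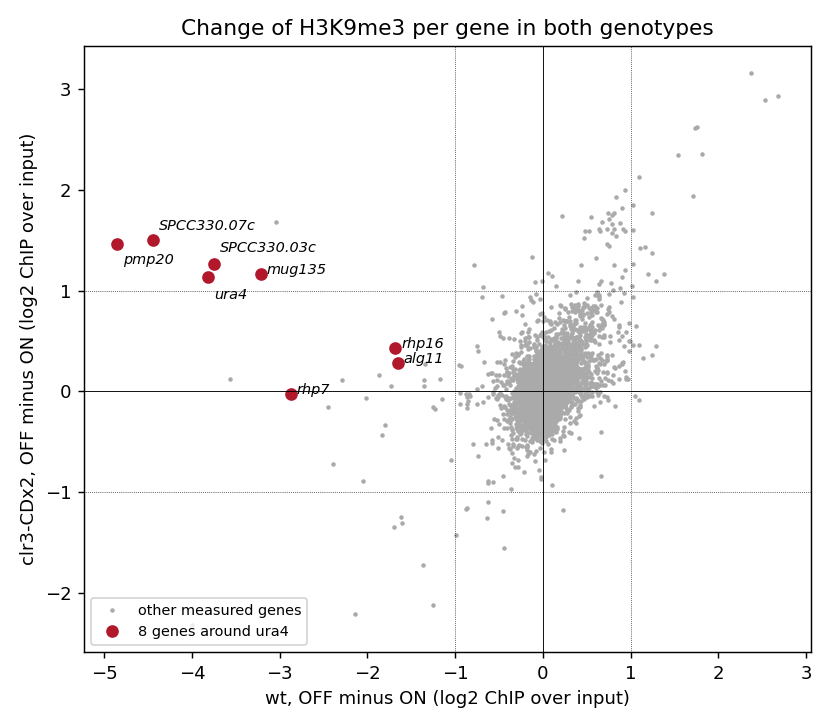
Difference in H3K9me3 between OFF and ON (log2 ChIP over input) in clr3-CDx2 (vertical axis) against that in wt (horizontal axis) for each measured gene, with the 8 genes around ura4 in red and dotted lines at a 2-fold difference. pmp20 lies at -4.85 in wt and 1.46 in clr3-CDx2, though the clr3-CDx2 value is -0.32 when arrays are scaled to equal pericentromeric signal.

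Set against each other, the genotypes differed more in OFF than in ON cells at these genes. The 8 genes were chosen as enriched on both ON arrays, which favours a small difference between genotypes in ON cells. The sizes of the OFF and ON differences thus cannot be read against each other. In OFF cells all 8 genes were counted as higher in clr3-CDx2 than in wt, as were 37 of 4934 genes overall (0.75%), with a median of 3.72 (13.2-fold) beside 0.02 over all genes. The differences were 6.07 at pmp20 (67.2-fold), 5.03 at SPCC330.07c, 4.42 at ura4 (21.4-fold), 4.20 at SPCC330.03c, 3.23 at mug135, 2.47 at rhp7, 1.63 at rhp16 and 1.60 at alg11. Only at rhp16 and rhp7 did the tiles of clr3-CDx2 OFF and wt OFF overlap. The wt OFF array enters both this comparison and that of wt OFF with wt ON, so the 2 are not independent. On the ChIP channel alone the median was 2.03.

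In ON cells mug135 alone was counted as lower in clr3-CDx2, at -1.15, and 7 of 4934 genes were (0.142%). The median of the 8 was -0.51, a sign that turns with scaling to equal pericentromeric signal, beside 0.02 over all genes. SPCC330.07c differed by -0.91, SPCC330.03c by -0.80, ura4 by -0.53, rhp16 by -0.49, rhp7 by -0.38, alg11 by -0.34 and pmp20 by -0.24. With equal pericentromeric signal, which without scaling was 2.79 in clr3-CDx2 ON and 3.63 in wt ON, the median was 0.21 and mug135 read -0.23, the only 1 of the 8 still below 0.

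The OFF-minus-ON difference was more positive in clr3-CDx2 than in wt at each of the 8 genes, from 1.94 at alg11 to 6.31 at pmp20, with a median of 4.66, and 35 of 4934 genes had such a gap of at least 1 (0.709%). It stayed positive at all 8 genes under each scaling tried. It ran from 1.28 at rhp16 to 4.51 at pmp20 with equal pericentromeric signal, and its median was 2.57 on the ChIP channel alone. The choice of the 8 genes on both ON arrays bears on this gap as well.

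Both channels of the array took part in these ratios. At ura4 ChIP signal was high and input signal low on each array but wt OFF, each taken as log2 less the array's own median in that channel. High ChIP signal did not go with low input at every tile, as at 105600 in wt OFF, with 2.24 and -0.13. ChIP signal at ura4 was 2.45 in clr3-CDx2 OFF, 2.05 in clr3-CDx2 ON, 0.10 in wt OFF and 2.16 in wt ON, and input signal was -1.74 in clr3-CDx2 OFF, -1.13 in clr3-CDx2 ON, 0.29 in wt OFF and -1.48 in wt ON. Input at ura4 was thus above the array median in wt OFF alone. Before dye normalisation and background subtraction, the input spots of ura4 had a median brightness of 9353 in clr3-CDx2 OFF, 12678 in clr3-CDx2 ON, 36329 in wt OFF and 10282 in wt ON. The median brightness of all input tiles was 30596 in clr3-CDx2 OFF, 27200 in clr3-CDx2 ON, 30937 in wt OFF and 29255 in wt ON, so the low input was present before those steps.

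Of the difference of -3.81 at ura4 between wt OFF and wt ON, the ChIP channel gave -2.06 and the input channel 1.77, and at SPCC330.07c they gave -2.82 and 1.68. pmp20 leaned more on the ChIP channel, with -3.86 and 1.01. In wt OFF its ChIP signal was -1.97 and its input -0.48, both below the array median. Its input was lower still on the other arrays, at -1.98 in clr3-CDx2 OFF, -1.53 in clr3-CDx2 ON and -1.49 in wt ON. At alg11 input differed by 0.29 and ChIP by -1.42. Over the whole stretch, 81 of 82 tiles had more input signal in wt OFF than in wt ON, with a median of 0.81, and all 82 had less ChIP signal, with a median of -2.37. In clr3-CDx2 all 81 tiles had more ChIP signal in OFF than in ON, with a median of 0.72, and 51 of 81 had less input, with a median of -0.10.

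**Figure D3:**
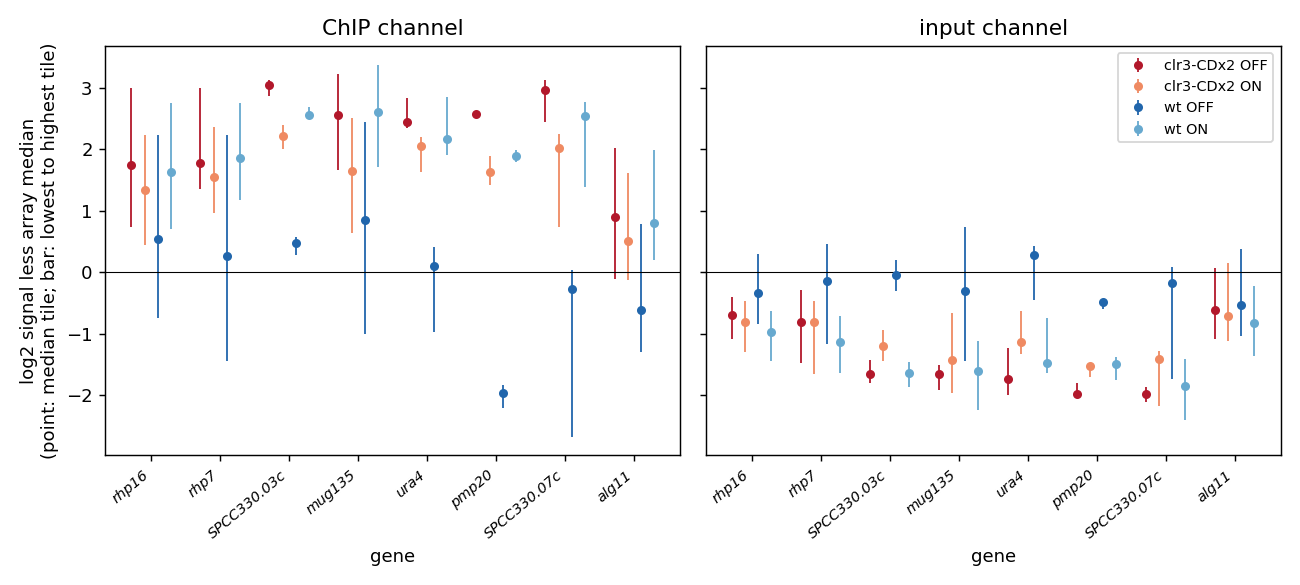
ChIP (left) and input (right) signal of the 8 genes, as log2 less the array's median in that channel (vertical axes), with points at the median tile and bars from the lowest to the highest tile, for clr3-CDx2 OFF, clr3-CDx2 ON, wt OFF and wt ON. Input at ura4 is -1.74 in clr3-CDx2 OFF and 0.29 in wt OFF, and at SPCC330.07c it is -1.97 in clr3-CDx2 OFF and -0.17 in wt OFF.

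Low input was common at other tiles with a ratio of 3 or more and less common at ratios between 2 and 3. Outside the stretch, among tiles with a plain name on the array and a ratio of 3 or more, input was at -1 or less in 92.0% of 176 tiles in clr3-CDx2 OFF, 71.9% of 114 in clr3-CDx2 ON, 87.9% of 91 in wt OFF and 80.6% of 93 in wt ON. Over all tiles outside the stretch with a ratio of 3 or more, the share was 77.5% in clr3-CDx2 OFF, 59.4% in clr3-CDx2 ON, 81.9% in wt OFF and 72.5% in wt ON. Over all tiles outside it with ratios between -0.5 and 0.5, the share was 2.60% in clr3-CDx2 OFF, 2.31% in clr3-CDx2 ON, 2.57% in wt OFF and 3.05% in wt ON. At all tiles outside the stretch with ratios between 2 and 3, the share was 2.99% in clr3-CDx2 OFF, 11.6% in clr3-CDx2 ON, 3.66% in wt OFF and 5.86% in wt ON. Tiles chosen for a high ratio favour a low input, since the ratio divides by it. What set the input signal at these tiles was not tested.

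Along the stretch the mark was not even. In clr3-CDx2 OFF it stepped up at SPCC330.03c, with 3.31 at 109200 and 4.84 at 109500, and stepped down before alg11, with 4.32 at 123300 and 2.52 at 123600. In wt ON the tiles at 123300 and 123600 read 3.68 and 1.46, the largest drop of that array within the stretch among plainly named tiles. Between these places lie the 5 genes of the middle. At 114300, between mug135 and ura4, the ratio was 0.89 in clr3-CDx2 OFF, 0.20 in clr3-CDx2 ON, 0.14 in wt OFF and 0.10 in wt ON, below the tiles on both sides on each array but wt OFF, where it was above them. The dip was wider than this tile. Plainly named tiles at 113700, 114000 and 114600 read 1.93, 1.60 and 1.47 in clr3-CDx2 ON, and 3.16, 2.66 and 2.31 in wt ON. They read 3.09, 2.61 and 2.45 in clr3-CDx2 OFF. Among plainly named tiles, the largest drop of clr3-CDx2 ON lay from 113400 to 113700. Among the same plainly named tiles, the largest rise of both ON arrays lay from 114600 to 114900. The tile at 114300 is 1 of 2 in the stretch that carry a different kind of name on the array, and 81.8% of the 31-base words around it are repeated in the reference. The other, at 108600 with 78.2% repeated words, read 1.35 in clr3-CDx2 OFF, 0.32 in clr3-CDx2 ON, 0.25 in wt OFF and 0.81 in wt ON. Neither lies in any of the 8 genes.

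**Figure D4:**
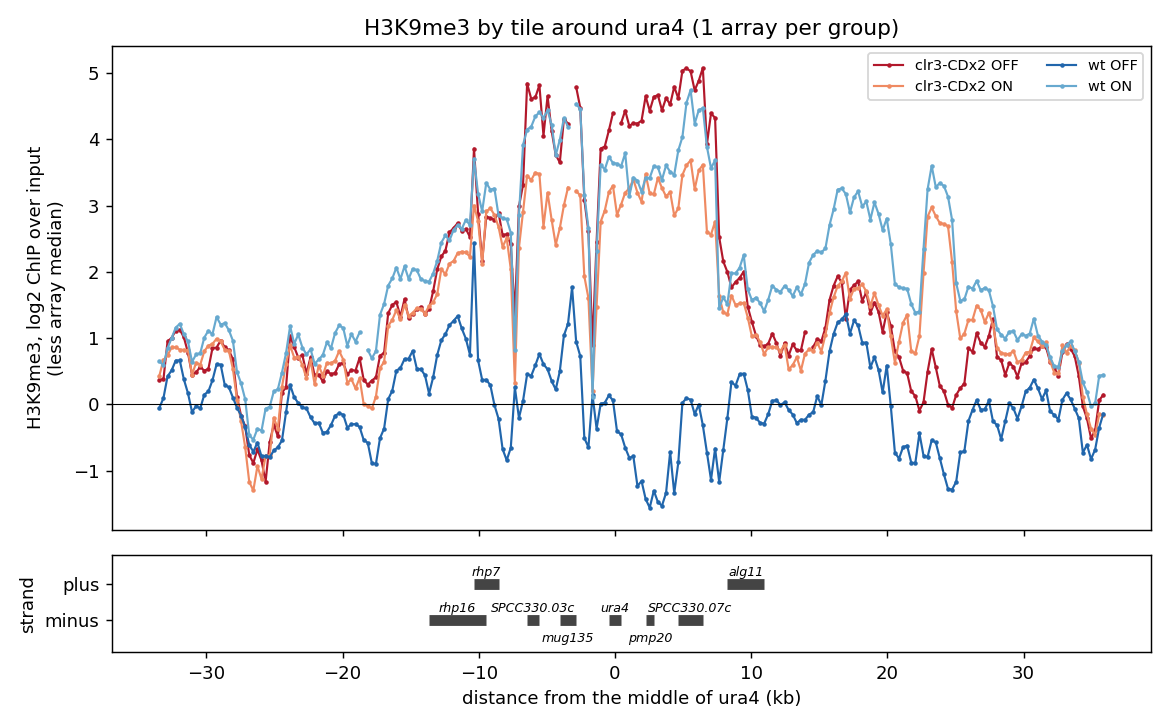
Level of H3K9me3 at each tile (vertical axis, log2 ChIP over input less the array median) against distance from the middle of ura4 (horizontal axis, kb), with the 8 genes drawn below by strand, for clr3-CDx2 OFF, clr3-CDx2 ON, wt OFF and wt ON, and gaps in a line where spots were marked. The tile where rhp16 and rhp7 meet reads 2.43 in wt OFF, and the tiles of pmp20 read between -1.56 and -1.31 on the same array.

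Tiles between the 8 genes carried the mark as well. The 32 of them had a median of 3.99 in clr3-CDx2 OFF, 2.76 in clr3-CDx2 ON, -0.66 in wt OFF and 3.44 in wt ON, and tiles inside the genes had 2.83 in clr3-CDx2 OFF, 2.81 in clr3-CDx2 ON, 0.34 in wt OFF and 3.25 in wt ON. In wt OFF none of the tiles between genes reached 1, while 9 of 51 inside did, 6 of them in rhp16 and 3 in mug135. A larger share of the tiles between genes lies in the middle of the stretch, so position and kind of tile cannot be told apart here.

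The ends of the 8 genes do not mark the ends of the enriched stretch. The last 4 tiles inside rhp16 had a median of 1.87 in clr3-CDx2 OFF, 1.60 in clr3-CDx2 ON, 0.58 in wt OFF and 2.07 in wt ON, and the 4 tiles just outside 1.40 in clr3-CDx2 OFF, 1.41 in clr3-CDx2 ON, 0.53 in wt OFF and 1.96 in wt ON. At the end of alg11 the 4 tiles inside read 0.97 in clr3-CDx2 OFF, 0.98 in clr3-CDx2 ON, -0.24 in wt OFF and 1.55 in wt ON. The 4 beyond it read 0.92 in clr3-CDx2 OFF, 0.86 in clr3-CDx2 ON, 0.02 in wt OFF and 1.71 in wt ON. In wt ON the mark thus stood at least as high just past alg11 as at its end.

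The 5 nearest genes beyond alg11 (enp2, pcm1, btb1, sdh3 and rpc37) were all counted as lower in wt OFF than in wt ON, with a median of -2.29. In clr3-CDx2 none of the 5 was counted between OFF and ON, with a median of -0.06, and whether they differ in this from the 8 genes was not tested. In ON cells pcm1 (-1.33), btb1 (-1.33) and sdh3 (-1.29) were counted as lower in clr3-CDx2 than in wt, among 7 of 4934 genes (0.142%). These counts depend on the processing. With equal pericentromeric signal 1 of 4934 genes was counted as lower in this comparison, and on the ChIP channel alone 0 were. Inside the stretch 3 further genes are annotated, of which tam14 and new25 have 1 tile each and were not measured. SPCC330.19c, with 2 tiles beside rhp7, read 2.56 in clr3-CDx2 OFF, 2.44 in clr3-CDx2 ON, -0.76 in wt OFF and 2.80 in wt ON.

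Other genes of the same pathways lie elsewhere in the genome. None of 5 other genes of uracil synthesis and uptake, 12 of nucleotide excision repair, 13 of lipid-linked oligosaccharide synthesis and 6 of the thiol peroxidase and thioredoxin list was counted as lower or higher in any comparison. Their median differences between wt OFF and wt ON were 0.04 for uracil synthesis, 0.02 for excision repair, -0.03 for oligosaccharide synthesis and -0.05 for the thiol list, beside 0.00 over all genes. Between clr3-CDx2 OFF and wt OFF they were -0.11 for uracil synthesis, 0.11 for excision repair, 0.09 for oligosaccharide synthesis and 0.20 for the thiol list. The uracil gene with the lowest level was ura1, the first enzyme of the pathway, which read -1.57 in clr3-CDx2 OFF, -1.89 in clr3-CDx2 ON, -0.75 in wt OFF and -1.47 in wt ON and differed by 0.73 between wt OFF and wt ON, opposite in sign to ura4. ura2, the dihydroorotase, read 0.34 in clr3-CDx2 OFF, 0.19 in clr3-CDx2 ON, -0.02 in wt OFF and 0.02 in wt ON. Among repair genes rad13, a nuclease, read 1.498 in clr3-CDx2 OFF, 1.48 in clr3-CDx2 ON, 1.18 in wt OFF and 1.14 in wt ON. rhp26, a helicase, read 1.48 in clr3-CDx2 OFF, 1.21 in clr3-CDx2 ON, 1.63 in wt OFF and 1.39 in wt ON. Levels from 1.14 to 1.63 were thus also found at repair genes that did not differ by 2-fold.

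Tiles read a sequence wherever it lies in the strains, and the places named here are those of the reference. The gene whose 4 levels were most like the median of the 8 was ade6, an enzyme of adenine synthesis, annotated elsewhere on chromosome III. Where ade6 sequence lies in these strains was not tested. ade6 read 4.05 in clr3-CDx2 OFF, 2.37 in clr3-CDx2 ON, 0.61 in wt OFF and 3.65 in wt ON, at a Euclidean distance of 0.89 on the log2 scale over the 4 arrays. The 8 genes themselves lay at distances from 0.38 for ura4 to 3.69 for alg11, so ade6 was nearer to their median than 7 of the 8. Next came SPCC330.19c, inside the stretch, at 2.18, then SPBPJ4664.02 at 2.79, SPAC977.18 at 2.94 and ftm2 at 2.96, the last 3 farther than 7 of the 8. These last 3 differed from the 8 genes in wt OFF. SPBPJ4664.02, a glycoprotein gene on chromosome II, read 2.43 there, beside 2.74 in clr3-CDx2 OFF, 2.75 in clr3-CDx2 ON and 2.92 in wt ON. SPAC977.18 and ftm2 read 2.38 and 2.37 in wt OFF, higher than their 1.63 and 1.59 in wt ON.

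In features that the choice did not use, the 8 genes were mixed. The minus strand carries 6 of 8, beside 50.6% of all measured genes, 6 of 8 have 1 coding exon, beside 52.9%, and their GC content runs from 35.4% at SPCC330.03c to 39.8% at pmp20, around a median of 36.8% over all measured genes. Their lengths run from 778 bp at pmp20 to 4287 bp at rhp16, so a gene's value rests on as few as 3 tiles or as many as 15.

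The arrays were alike in signal, with input spots at 417 to 490 times their local background in the median and ChIP spots at 137 to 166 times. Between 190 and 578 tiles per array were marked as non-uniform, and none was saturated. The clr3 gene itself read -1.32 in clr3-CDx2 OFF, -1.39 in clr3-CDx2 ON, 0.66 in wt OFF and 0.56 in wt ON, so the arrays of a genotype read alike there. The 4 arrays share 1 slide and 1 scan, and precision is limited by their number.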

How the data were processed

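H3K9me3 was profiled on 4 arrays, 1 per group. Per the file headers, the authors' scanner files come from Agilent Feature Extraction 12.0.3.1 and hold the intensity of each spot and its background in both channels, with processed intensity that is background-subtracted and dye-normalised by a linear factor, and marks for non-uniform, dim and saturated spots. The value table they deposited is, tile by tile, the log2 ratio of processed Cy5 (ChIP) to processed Cy3 (input) signal, and is not centred. Other processing steps and the genome build of the array are not given in the sources used here.

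The value used was that log2 ratio less the array's median genomic tile, with no loess or quantile step. A spot marked non-uniform was dropped on that array only, and 1417 control spots were dropped throughout. Genes other than the 8 took their extents from RefSeq (ASM294v3), and each chromosome arm was shifted to where input signal followed GC content most closely, 200 bp on the left arm of III (correlation 0.34, and at most 0.06 beyond 1 kb). A gene needed at least 2 tiles. With 1 array per group no test was run, and a difference of at least 1 with a level of at least 1 was counted. The members, lists, cut and naming rule (the 8 genes, their 5 neighbours on each side, of which the left ones are not reported here, listed genes that were counted or had the highest or lowest level, and the 5 most alike genes) were chosen with earlier results of these data known. Of the 7, 14, 15 and 8 genes in the lists for uracil, excision repair, oligosaccharide and thiol genes, 6, 14, 14 and 7 were matched by symbol or synonym, and alg7 and gpt2 are 1 gene.

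Alternatives were other centring, no centring, scaling to equal pericentromeric signal, normexp background correction (offset 50, limma 3.58.1 in R 4.3.3), marked spots kept, the ChIP channel alone, other gene summaries and extents, and other cuts. The plan named mean spot signals for normexp, and the median spot signals of the files were used. Calculations used Python 3.11.15 with numpy 2.4.6 and pandas 2.3.3 and were tested on simulated data.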

Additional observations from a re-analysis of the deposited data

Results flagged for a closer look

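At 5 of the 8 genes the OFF arrays lay on opposite sides of the ON arrays in the 2 genotypes, above in clr3-CDx2 and below in wt, with a difference of at least 1 in each. The gap between the OFF-minus-ON differences of clr3-CDx2 and wt was 6.31 at pmp20, 5.94 at SPCC330.07c, 5.01 at SPCC330.03c, 4.95 at ura4 and 4.38 at mug135. With 1 array per group this gap was not tested. Under scaling to equal pericentromeric signal, the OFF arrays of these genes lay below the ON arrays in both genotypes, and the gaps were 4.51 at pmp20, 4.23 at SPCC330.07c, 3.44 at SPCC330.03c, 3.43 at ura4 and 3.08 at mug135.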

How the results depend on the processing

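No paired analysis was possible because each group has 1 array and the labels carry no replicate numbers. Scaled to equal pericentromeric signal, the clr3-CDx2 OFF-minus-ON difference was reversed, with a median of -0.56 and -0.64 at SPCC330.03c, -0.55 at mug135, -0.57 at ura4, -0.32 at pmp20 and -0.47 at SPCC330.07c. In that setting 1 of 8 genes was counted there (lower), the median difference of clr3-CDx2 ON from wt ON was 0.21 with 0 genes counted, and the gap between genotypes had a median of 3.25. This scaling sets the pericentromeric medians equal and so cannot show their own difference. On the ChIP channel alone the medians were -1.91 for wt OFF minus wt ON, 2.03 for clr3-CDx2 OFF minus wt OFF and 2.57 for the gap, with 0 genes counted between clr3-CDx2 OFF and ON and 0 between genotypes in ON cells. Normexp background correction also left 0 counted between clr3-CDx2 OFF and ON. A cut of 0.58 counted 3 genes as lower in clr3-CDx2 ON than in wt ON, and a cut of 1.5 counted 0 there and 0 between clr3-CDx2 OFF and ON. The causes were not tested. Each array's most frequent ratio exceeded its median tile by 0.07 in clr3-CDx2 OFF, 0.24 in clr3-CDx2 ON, 0.06 in wt OFF and 0.25 in wt ON, and centring on it lowered the ON arrays by that much. Over all settings the wt median ran from -3.81 to -1.91 and that of clr3-CDx2 OFF minus wt OFF from 2.03 to 3.74, with 7 or 8 of 8 genes counted in each. Of 40 values per setting for single genes, 20 moved by over 1.5-fold on the ChIP channel alone, 6 with normexp and 20 under the scaling, beside the 5 reversed ones, and none under the other settings that give such values.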
